A study of Homo sapiens with 9 samples.

Results

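The RNA interference machinery was followed through 10 genes: XPO5, DICER1, TARBP2, the Argonaute genes AGO1, AGO2, AGO3 and AGO4, and the scaffold genes TNRC6A, TNRC6B and TNRC6C. They were taken by symbol, together with every probe set annotated to 1 of them alone, which gave 44 of the 54675 probe sets on the arrays. Another 3 probe sets carry AGO2 beside a second symbol and were left out. AGO2 was thus read by 1 probe set and each of the other 9 genes by 2 to 7. Where several sets read a gene, its level is given from the brightest, that is the highest on average, as a log2 expression value on the scale of robust multi-array averaging (RMA).

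The cells were U2OS, a human osteosarcoma line, in 3 groups of 3 arrays. One group carried a non-targeting hairpin (shControl), and each of the others carried 1 hairpin directed at BAP1 (shBAP1 #1 and shBAP1 #2). BAP1 encodes a tumour suppressor that removes ubiquitin from proteins in the nucleus, and the study asked which transcripts change when it is depleted. Per the labels' protocols, cells of all groups received their plasmid by lipid transfection, went through puromycin selection and were held at the G1/S border by a double thymidine block, so the controls share the arrest and also carry a short hairpin RNA. The labels do not say whether the 3 arrays of a group came from separate cultures, and p-values then measure only the spread between these arrays, which may be technical. No probe set was named BAP1 in the annotation used, so the depletion itself was not analysed here.

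In cells, microRNA precursors leave the nucleus through exportin-5, the product of XPO5, and are cut in the cytoplasm by the ribonuclease Dicer with its double-stranded RNA binding partner TRBP, the product of TARBP2. The resulting strand is loaded into an Argonaute protein, which finds target messages by base pairing. Argonautes bind TNRC6 proteins, also called GW182 proteins, which bring in the enzymes that remove the poly(A) tail and the cap. Short hairpin RNAs expressed from plasmids pass through exportin-5, Dicer and Argonaute as well, in the controls as in the BAP1-depleted cells. Among the human Argonautes, AGO2 is the one known for cutting well-matched targets.

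Arrays of 1 group correlated across probe sets at 0.995 to 0.997, and arrays of different groups at 0.977 to 0.990. Within shBAP1 #2, replicate 1 was the array most like the controls, at a mean r of 0.989, while replicates 2 and 3 had 0.982 and 0.981. For actin, the signal of the 3' set minus that of the 5' set, a measure of RNA integrity, was 0.47 to 0.51 log2 units in the controls, 0.39 to 0.41 with shBAP1 #1 and 0.39 to 0.46 with shBAP1 #2. This actin measure separated the controls from both hairpins. The same measure for GAPDH overlapped between the groups, at -0.061 to -0.018 in the controls, -0.052 to -0.034 with shBAP1 #1 and -0.045 to -0.031 with shBAP1 #2. The part of RNA integrity in the changes below was not tested. The osteoblast markers COL1A1, SPARC, SPP1 and RUNX2 and the mesenchymal marker VIM had means above 5.43, the median over the means of all sets, as had the epithelial genes KRT18, KRT8 and EPCAM, while the epithelial CDH1 lay below it. SP7, ALPL, IBSP and COL1A2 lay below that median, as did both leukocyte genes read, PTPRC and CD3E. Of the endothelial genes CDH5 and VWF lay below it and PECAM1 above. Marker genes also changed beside the members. Of 8 osteoblast genes 3 rose and 1 fell with shBAP1 #1 and 2 rose with shBAP1 #2, of 3 mesenchymal genes 2 rose with each hairpin, and of 4 epithelial genes 3 fell with each. These counts use the threshold defined below, which 23.4% of all genes passed with shBAP1 #1 and 31.2% with shBAP1 #2. SPP1, which encodes the bone matrix protein osteopontin, changed by -2.54 with shBAP1 #1 and 1.93 with shBAP1 #2, RUNX2 by 1.20 with shBAP1 #1 against 0.03 (adjusted p = 0.938) with shBAP1 #2, and fibronectin FN1 by 1.81 and 0.25. KRT18 changed by -0.63 and -0.87, KRT8 by -0.28 and -0.79, EPCAM by -0.54 and -0.64, and PECAM1 by -0.83 and -0.73. The part of these shifts in the members' changes was not tested.

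Promoter windows of RefSeq (GRCh38.p14, 250 bases before to 50 after a start) were read for 9 of the 10 genes, in 18 windows. Those of AGO2 were not used here. Shown here are the bases before the start for the gene that changed most with both hairpins (TNRC6C), the gene that changed most with only shBAP1 #1 past the threshold (DICER1) and the gene that changed in opposite directions (TNRC6A), each from its window with the most CpG dinucleotides. They lie on chr17:77958453-77958702 (plus strand), chr14:95157530-95157779 (minus strand) and chr16:24729401-24729650 (plus strand).
TNRC6C: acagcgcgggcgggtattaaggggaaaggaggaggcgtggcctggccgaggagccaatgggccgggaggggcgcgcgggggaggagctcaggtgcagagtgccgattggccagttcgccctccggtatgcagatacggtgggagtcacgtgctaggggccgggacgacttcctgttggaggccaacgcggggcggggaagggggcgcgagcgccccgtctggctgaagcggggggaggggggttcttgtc
DICER1: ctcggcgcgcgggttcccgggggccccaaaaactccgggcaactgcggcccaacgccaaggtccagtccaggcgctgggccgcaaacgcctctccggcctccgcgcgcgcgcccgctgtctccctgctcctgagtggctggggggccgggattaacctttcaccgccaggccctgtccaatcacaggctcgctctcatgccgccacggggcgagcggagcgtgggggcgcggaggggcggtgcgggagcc
TNRC6A: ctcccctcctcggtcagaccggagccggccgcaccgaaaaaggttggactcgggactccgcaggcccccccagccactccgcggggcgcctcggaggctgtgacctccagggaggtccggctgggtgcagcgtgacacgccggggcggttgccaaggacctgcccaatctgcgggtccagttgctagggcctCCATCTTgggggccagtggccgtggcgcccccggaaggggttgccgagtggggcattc
Capitals mark the letters CCATNTT, the core of the motif of YY1, a transcription factor known to bind BAP1, searched on both strands. These letters occurred in 15.6% of the 35116 windows of the table and in 3 of the 18 windows of these genes, a share near that of the table. Binding of YY1 at these matches was not tested. TNRC6A had them from base -58, counted from the start at 0, on the plus strand. TNRC6C had them in 2 windows, both times on the minus strand: from base -135 of one start, and from base 12 of the start whose upstream bases are printed above. The stretches around the latter, at chr17:77958704-77958733, and around the former, at chr17:77957411-77957440, are given on the plus strand.
TNRC6C after the start: gttagagcaacAAGATGGccgcggtggcag
TNRC6C before the other start: ggagggcttaaAATATGGcagtaagaagaa
The DICER1 windows held no match, which says only that these letters are not in them. CpG content could differ between windows of the same gene. The 300-base DICER1 window whose upstream bases are shown has 37 CpG and 73.7% G and C, and another DICER1 window has 0 CpG and 34.0%. The TNRC6C windows ranged from 2 CpG and 39.3% to 29 CpG and 69.3%. Over the whole table the medians were 14 CpG and 58.7%.

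With shBAP1 #1, 6 of the 10 genes passed the threshold against shControl (limma, Benjamini-Hochberg adjusted p below 0.05 over 54613 probe sets), 2 higher (AGO1 and TNRC6C) and 4 lower (DICER1, TARBP2, TNRC6A and TNRC6B). Of all 19775 genes read the same way, 23.4% passed, 11.9% higher and 11.5% lower. With shBAP1 #2, 8 of 10 passed, 5 higher (AGO2, AGO3, AGO4, TNRC6A and TNRC6C) and 3 lower (TARBP2, XPO5 and TNRC6B), where 31.2% of all genes passed, 15.8% higher and 15.5% lower. Both comparisons use the same 3 control arrays. Between the hairpins themselves 8 of 10 genes differed, 5 higher with shBAP1 #2 (AGO2, AGO3, AGO4, DICER1 and TNRC6A) and 3 lower (AGO1, TARBP2 and XPO5), against 32.6% of all genes, 16.1% higher and 16.5% lower. The median log2 change of the 10 genes was -0.11, 0.24 and 0.28 in these comparisons, and that of all genes was 0.01, 0.02 and 0.01. The share of members called lay above that of all genes in each of these comparisons, with calls in both directions. The members were chosen with earlier results of these data known, so this excess only describes them and is no independent evidence. No member is dim, whereas 7014 of the 19775 genes have a mean below the median of all probe sets; among the 12761 others the shares called were 34.0%, 45.1% and 46.8%. With both hairpins, only TARBP2, TNRC6B and TNRC6C were called in the same direction.

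**Figure D1:**
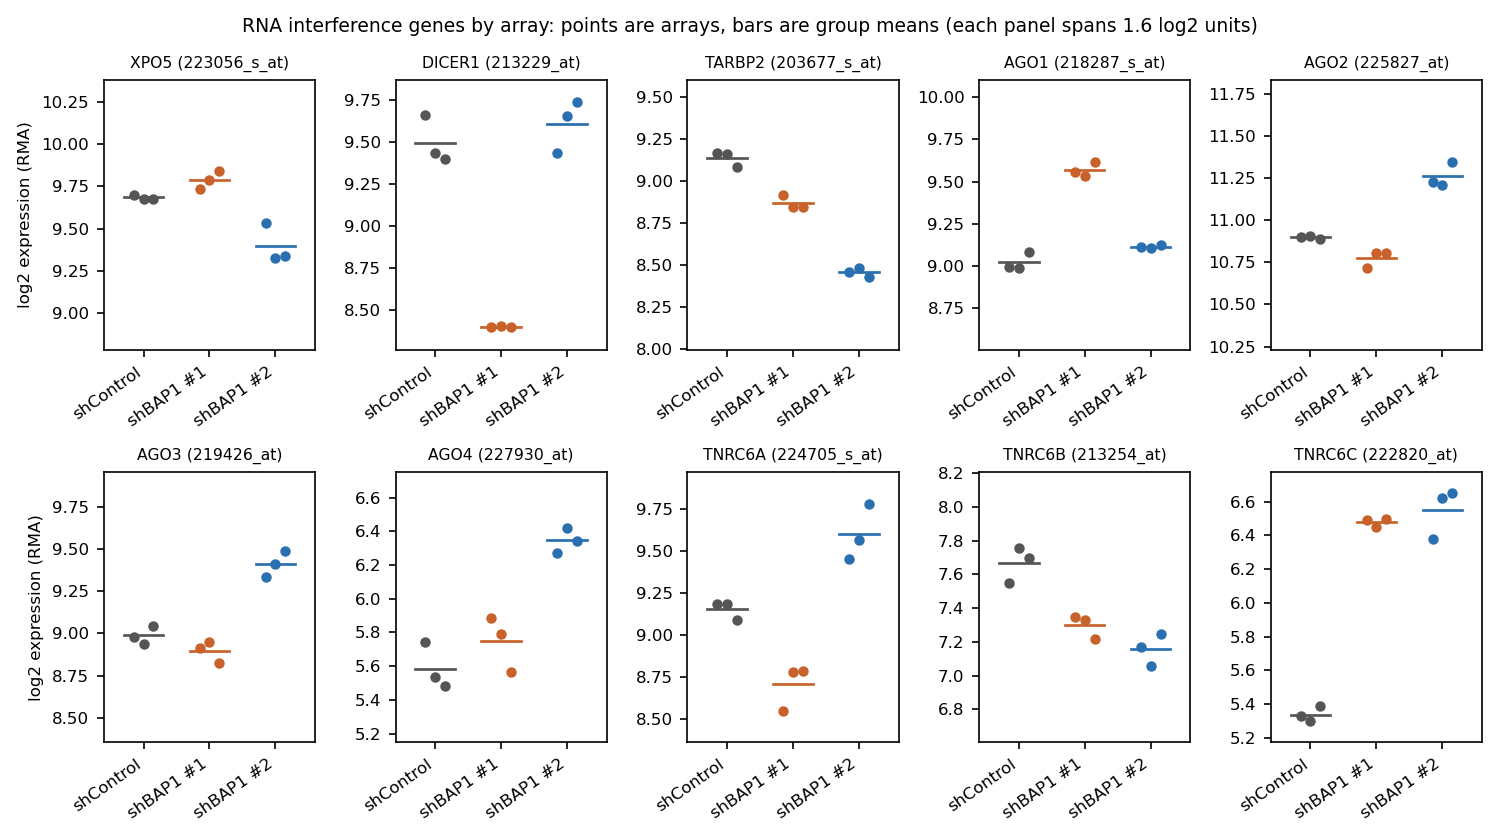
log2 expression (RMA) of each gene by array, read by the probe set named above the panel. Points are arrays, bars are means of 3 arrays, and each panel spans the same log2 range. DICER1 is low in all 3 shBAP1 #1 arrays (8.40 to 8.41), TNRC6C is high in all 6 arrays with a BAP1 hairpin (6.38 to 6.65), and AGO2, AGO3, AGO4 and TNRC6A are highest with shBAP1 #2.

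Over the 44 probe sets, 14 passed with shBAP1 #1 (4 higher, 10 lower), where 17.7% of all probe sets did, 8.98% higher and 8.76% lower. With shBAP1 #2, 16 passed (9 higher, 7 lower) against 24.1% of all, 12.6% higher and 11.5% lower. Between the hairpins 16 differed (11 higher with shBAP1 #2, 5 lower) against 25.5% of all, 13.0% higher and 12.5% lower. Probe sets of 1 gene share their target and are not independent. Of the 44, 14 had a mean below the median of all probe sets, where background compresses changes, and 12 carry a suffix that marks probes shared between transcripts.

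**Figure D2:**
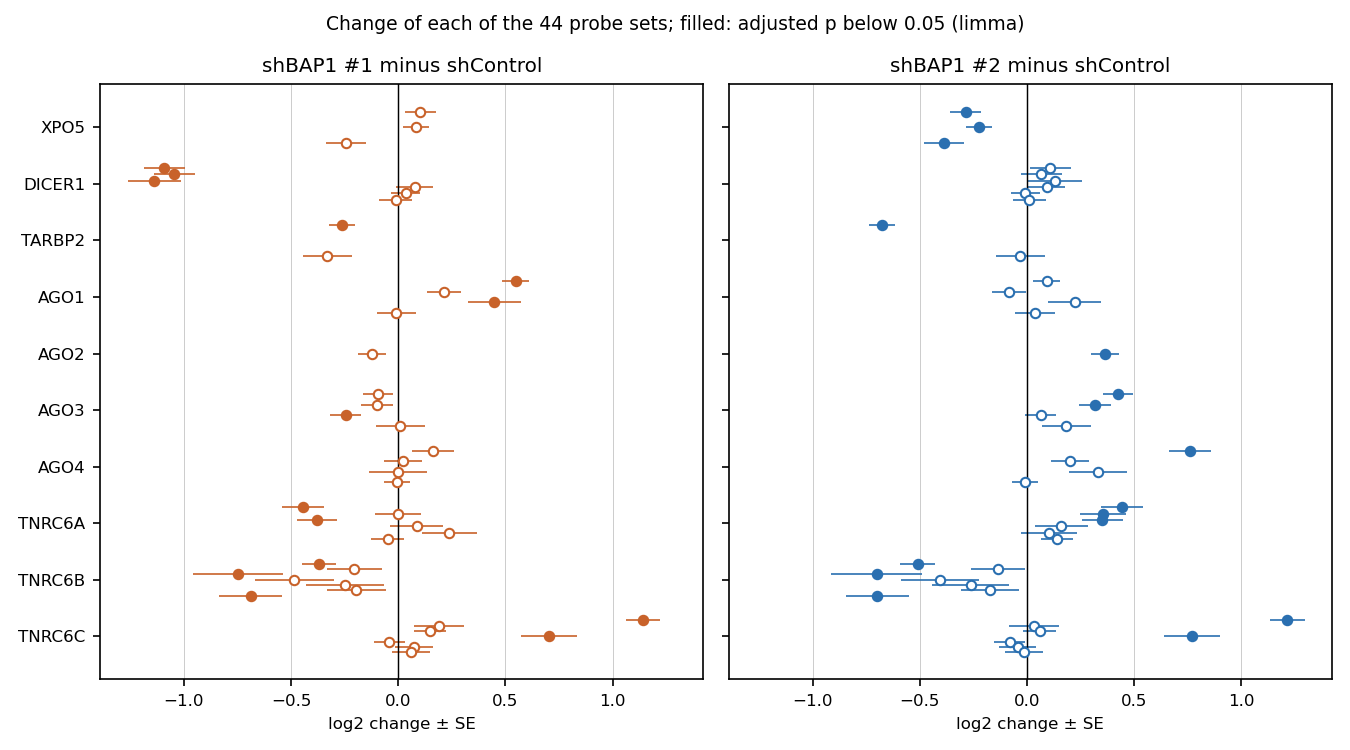
log2 change ± SE of the 44 probe sets against shControl, with shBAP1 #1 on the left and shBAP1 #2 on the right. Rows are genes, points within a row are its probe sets from the highest mean (top) to the lowest, and filled points passed the threshold. The 3 DICER1 sets near -1.1 on the left lie between 0.07 and 0.13 on the right.

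XPO5, the export receptor, was lower with shBAP1 #2. Its levels were 9.70, 9.68 and 9.68 in the control arrays, 9.74, 9.79 and 9.84 with shBAP1 #1, and 9.54, 9.32 and 9.34 with shBAP1 #2. The shBAP1 #2 arrays lay below all others, with replicate 1 nearest to the controls. The log2 change with shBAP1 #2 was -0.29 ± 0.07 (SE, n = 3, limma adjusted p = 0.0157), and the other 2 XPO5 probe sets fell as well, by 0.22 and 0.39. With shBAP1 #1 the same set gave 0.10 (adjusted p = 0.447), and the 3 sets ranged from -0.24 to 0.10 with 0 past the threshold. The difference between the hairpins was -0.39 ± 0.07 (adjusted p = 0.00248). The call against the controls was lost without shControl replicate 1 or shBAP1 #2 replicate 2 or 3, with an adjusted p of up to 0.0642. All 3 XPO5 sets carry the suffix for shared probes.

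DICER1 was lowered about 2-fold by shBAP1 #1 and was not called with shBAP1 #2. On its brightest probe set the controls read 9.66, 9.43 and 9.39, shBAP1 #1 read 8.40, 8.41 and 8.40, and shBAP1 #2 read 9.43, 9.65 and 9.73. The 3 arrays of shBAP1 #1 lay apart from the other 6, which overlapped each other. The change with shBAP1 #1 was -1.09 ± 0.10 (SE, n = 3, limma adjusted p = 4.1e-05), a 2.13-fold fall. With shBAP1 #2 it was 0.11 (95% interval -0.10 to 0.32, adjusted p = 0.493), and the hairpins differed by 1.20 ± 0.10 (adjusted p = 1.1e-05).

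The second DICER1 probe set had levels of 8.03, 7.83 and 7.82 in the controls and 6.83, 6.80 and 6.91 with shBAP1 #1. The third had 7.62, 7.46 and 7.46, and 6.10, 6.58 and 6.45. Both repeated the fall, at -1.05 and -1.14, and with shBAP1 #2 gave 0.07 and 0.13. The remaining 3 sets lay below the median of all probe sets in every array, between 3.78 and 4.28, and gave changes of -0.01 to 0.09 with 0 calls. The mean of both hairpins against the controls was also called for DICER1 (-0.49, adjusted p = 0.00182), although shBAP1 #1 carried the fall.

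**Figure D3:**
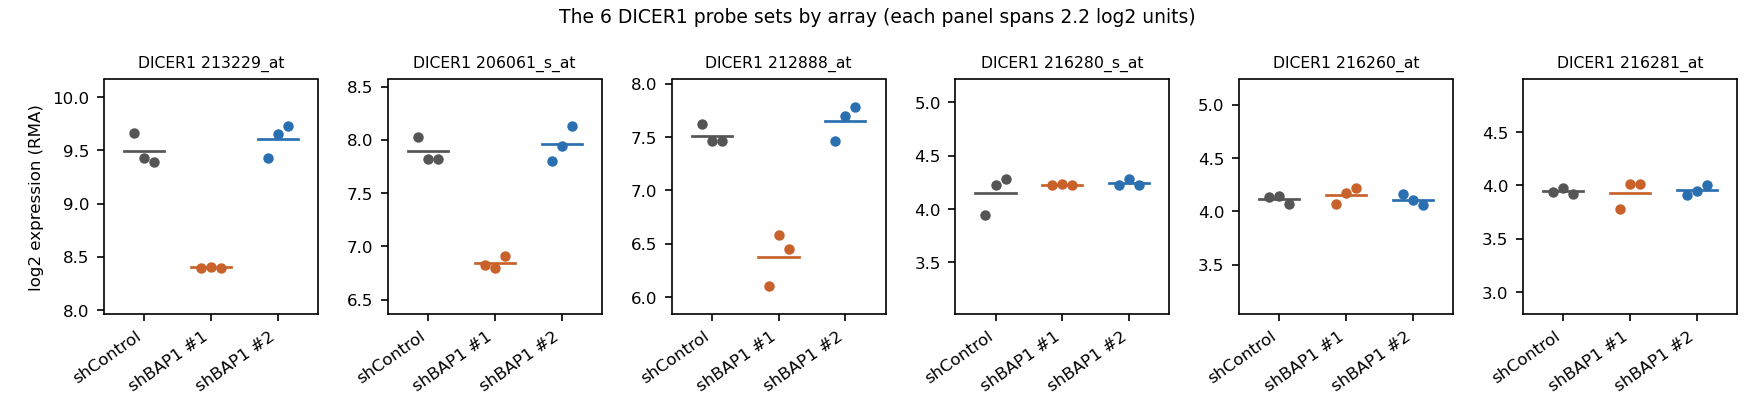
log2 expression (RMA) of the 6 DICER1 probe sets by array, from the highest mean on the left to the lowest on the right, with bars at means of 3 arrays. The first 3 sets are lower in the 3 shBAP1 #1 arrays than in all other arrays, and the last 3 sit near 4 in every group.

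On its brighter probe set TARBP2, which encodes Dicer's partner TRBP, was lower with both hairpins and lowest with shBAP1 #2. Its levels were 9.17, 9.16 and 9.08 in the controls, 8.92, 8.85 and 8.85 with shBAP1 #1, and 8.46, 8.48 and 8.43 with shBAP1 #2. The 3 groups did not overlap, as was the case for 38.8% of all genes between the controls and shBAP1 #1, 42.9% between the controls and shBAP1 #2 and 43.9% between the hairpins. The change was -0.26 ± 0.06 with shBAP1 #1 (SE, n = 3, limma adjusted p = 0.0124) and -0.68 ± 0.06 with shBAP1 #2 (adjusted p = 3.9e-05), a difference of -0.41 (adjusted p = 5.4e-04). The smaller of these calls reached an adjusted p = 0.0510 without shControl replicate 1. The second TARBP2 set, at 5.75 to 6.32 over all arrays, was not called in either comparison (-0.33 with shBAP1 #1 and -0.03 with shBAP1 #2). Its means were 6.23 in the controls, 5.90 with shBAP1 #1 and 6.20 with shBAP1 #2, so it was lowest with shBAP1 #1. Both calls, and the fall with shBAP1 #2, thus rest on the first set, whose suffix marks shared probes.

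The Argonaute genes split between the hairpins. AGO1 rose with shBAP1 #1: its levels were 8.99, 8.99 and 9.09 in the controls, 9.55, 9.53 and 9.62 with shBAP1 #1, and 9.11, 9.10 and 9.13 with shBAP1 #2. All 3 shBAP1 #1 arrays lay above the other 6. The change was 0.55 ± 0.06 with shBAP1 #1 (SE, n = 3, limma adjusted p = 1.7e-04) and 0.09 (adjusted p = 0.359) with shBAP1 #2, and the hairpins differed by -0.46 (adjusted p = 3.1e-04). A second of its 4 sets was also called with shBAP1 #1 (0.45, adjusted p = 0.0293). That second call was lost without shBAP1 #1 replicate 1 or 2, at up to adjusted p = 0.110, and the change was 0.28 without shControl replicate 3. The other 2 sets gave 0.21 and -0.01. With probe sets of shared probes left out, the difference between the hairpins was -0.23 on the AGO1 set then used (adjusted p = 0.268).

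AGO2, the slicing Argonaute, rose with shBAP1 #2. Its levels were 10.90, 10.90 and 10.89 in the controls, 10.72, 10.81 and 10.81 with shBAP1 #1, and 11.22, 11.21 and 11.35 with shBAP1 #2. The shBAP1 #2 arrays lay above all others, and the shBAP1 #1 arrays lay slightly below the controls. The change with shBAP1 #2 was 0.36 ± 0.07 (SE, n = 3, limma adjusted p = 0.00211), with shBAP1 #1 it was -0.12 (adjusted p = 0.287), and the hairpins differed by 0.48 (adjusted p = 2.9e-04).

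AGO3 followed the same order. Its levels were 8.98, 8.94 and 9.05 in the controls, 8.91, 8.95 and 8.82 with shBAP1 #1, and 9.34, 9.41 and 9.49 with shBAP1 #2. The controls and shBAP1 #1 overlapped, and shBAP1 #2 lay above both. AGO3 rose by 0.43 ± 0.07 with shBAP1 #2 (SE, n = 3, limma adjusted p = 0.00121) and stood at -0.09 with shBAP1 #1 (adjusted p = 0.471). Of its 4 sets, 3 were higher with shBAP1 #2 than with shBAP1 #1 (differences 0.31 to 0.52). One dim set was called lower with shBAP1 #1 (-0.25, adjusted p = 0.0391), a call kept in 2 of the 9 fits that left out 1 array, those without replicate 1 of either BAP1 hairpin, and lost with the replicate number as a block (adjusted p = 0.0689).

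AGO4 had the largest rise of the Argonautes with shBAP1 #2. Its levels were 5.74, 5.54 and 5.48 in the controls, 5.88, 5.79 and 5.57 with shBAP1 #1, and 6.27, 6.42 and 6.34 with shBAP1 #2. The first 2 groups overlapped and lay below the third. The change was 0.76 ± 0.10 with shBAP1 #2 (SE, n = 3, limma adjusted p = 2.9e-04) and 0.16 (adjusted p = 0.356) with shBAP1 #1, and the hairpins differed by 0.60 (adjusted p = 0.00106). The other 3 AGO4 sets were not called, at -0.01 to 0.33 with shBAP1 #2. In the RefSeq gene order AGO4, AGO1 and AGO3 follow each other on chromosome 1 with only the pseudogene CFAP97P1 among them, so the gene that rose with shBAP1 #1 lies between both that rose with shBAP1 #2.

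The TNRC6 genes each behaved differently. TNRC6A went in opposite directions: its levels were 9.18, 9.18 and 9.09 in the controls, 8.55, 8.78 and 8.79 with shBAP1 #1, and 9.45, 9.56 and 9.78 with shBAP1 #2. The 3 groups did not overlap, with the controls in the middle. The change was -0.44 ± 0.10 with shBAP1 #1 (SE, n = 3, limma adjusted p = 0.00901) and 0.45 ± 0.10 with shBAP1 #2 (adjusted p = 0.00669), and the hairpins differed by 0.89 ± 0.10 (adjusted p = 7.7e-05). The mean of both hairpins was 0.00.

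Of the 6 TNRC6A sets, 2 were lower with shBAP1 #1 and 3 higher with shBAP1 #2. The sets called lower are those whose suffix marks shared probes (-0.44 and -0.38). The next brightest set, without that suffix, gave -0.00 with shBAP1 #1 (adjusted p = 0.992) and 0.35 with shBAP1 #2 (adjusted p = 0.0346), a call lost without shControl replicate 2 or 3 or shBAP1 #2 replicate 1 or 3. The fall with shBAP1 #1 was therefore not called with the mean of all TNRC6A sets (-0.09, adjusted p = 0.494) or with the shared-probe sets left out. Between the hairpins the 3 brightest sets all differed, by 0.36 to 0.89, though the smallest of these was lost without shBAP1 #1 replicate 1 or 3 or shBAP1 #2 replicate 3.

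TNRC6B was lower with both hairpins. Its levels were 7.55, 7.75 and 7.70 in the controls, 7.35, 7.33 and 7.22 with shBAP1 #1, and 7.17, 7.06 and 7.25 with shBAP1 #2. The controls lay above both other groups, which overlapped each other. The change was -0.37 ± 0.08 with shBAP1 #1 (SE, n = 3, limma adjusted p = 0.00835) and -0.51 ± 0.08 with shBAP1 #2 (adjusted p = 9.2e-04), and the difference of -0.14 between the hairpins was not called (95% interval -0.32 to 0.04).

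All 7 TNRC6B sets gave negative changes with each hairpin, between -0.75 and -0.13, and 3 of them passed in each comparison. On 6 of the 7 sets shControl replicate 3 was the lowest control, as it was on 34.0% of all probe sets. The same held for 5 of 6 TNRC6A and 4 of 6 DICER1 sets, but for 2 of 7 TNRC6C and 0 of 4 AGO3 sets. On the TNRC6B set with the largest change with shBAP1 #1 (-0.75) the controls read 7.36, 7.29 and 6.57. Its call with shBAP1 #1 was lost without shControl replicate 1 (-0.60, adjusted p = 0.133) or 2, shBAP1 #1 replicate 2 or 3, or shBAP1 #2 replicate 2. Its call with shBAP1 #2 (-0.70) was lost without shControl replicate 1 or 2 or any shBAP1 #2 array. The brightest TNRC6B set kept both calls in all 9 fits without 1 array.

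TNRC6C rose more than 2-fold with both hairpins, the largest change of the 10 genes against the controls. Its levels were 5.33, 5.30 and 5.39 in the controls, 6.49, 6.45 and 6.50 with shBAP1 #1, and 6.38, 6.63 and 6.65 with shBAP1 #2. All 6 arrays with a BAP1 hairpin lay about 1 log2 unit or more above every control. The change was 1.14 ± 0.08 with shBAP1 #1 (SE, n = 3, limma adjusted p = 1.7e-05) and 1.22 ± 0.08 with shBAP1 #2 (adjusted p = 8.6e-06), or 2.21-fold and 2.32-fold. The hairpins differed by 0.07 (95% interval -0.11 to 0.25).

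A second TNRC6C probe set read 4.62, 4.52 and 4.95 in the controls, 5.48, 5.36 and 5.36 with shBAP1 #1 and 5.21, 5.68 and 5.52 with shBAP1 #2. It rose by 0.70 (adjusted p = 0.00369) and 0.77 (adjusted p = 0.00158). The control means of both sets lie below the median of all probe sets. The other 5 sets were not called, at -0.08 to 0.19, and 4 of the 7 TNRC6C sets are dim on average.

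**Figure D4:**
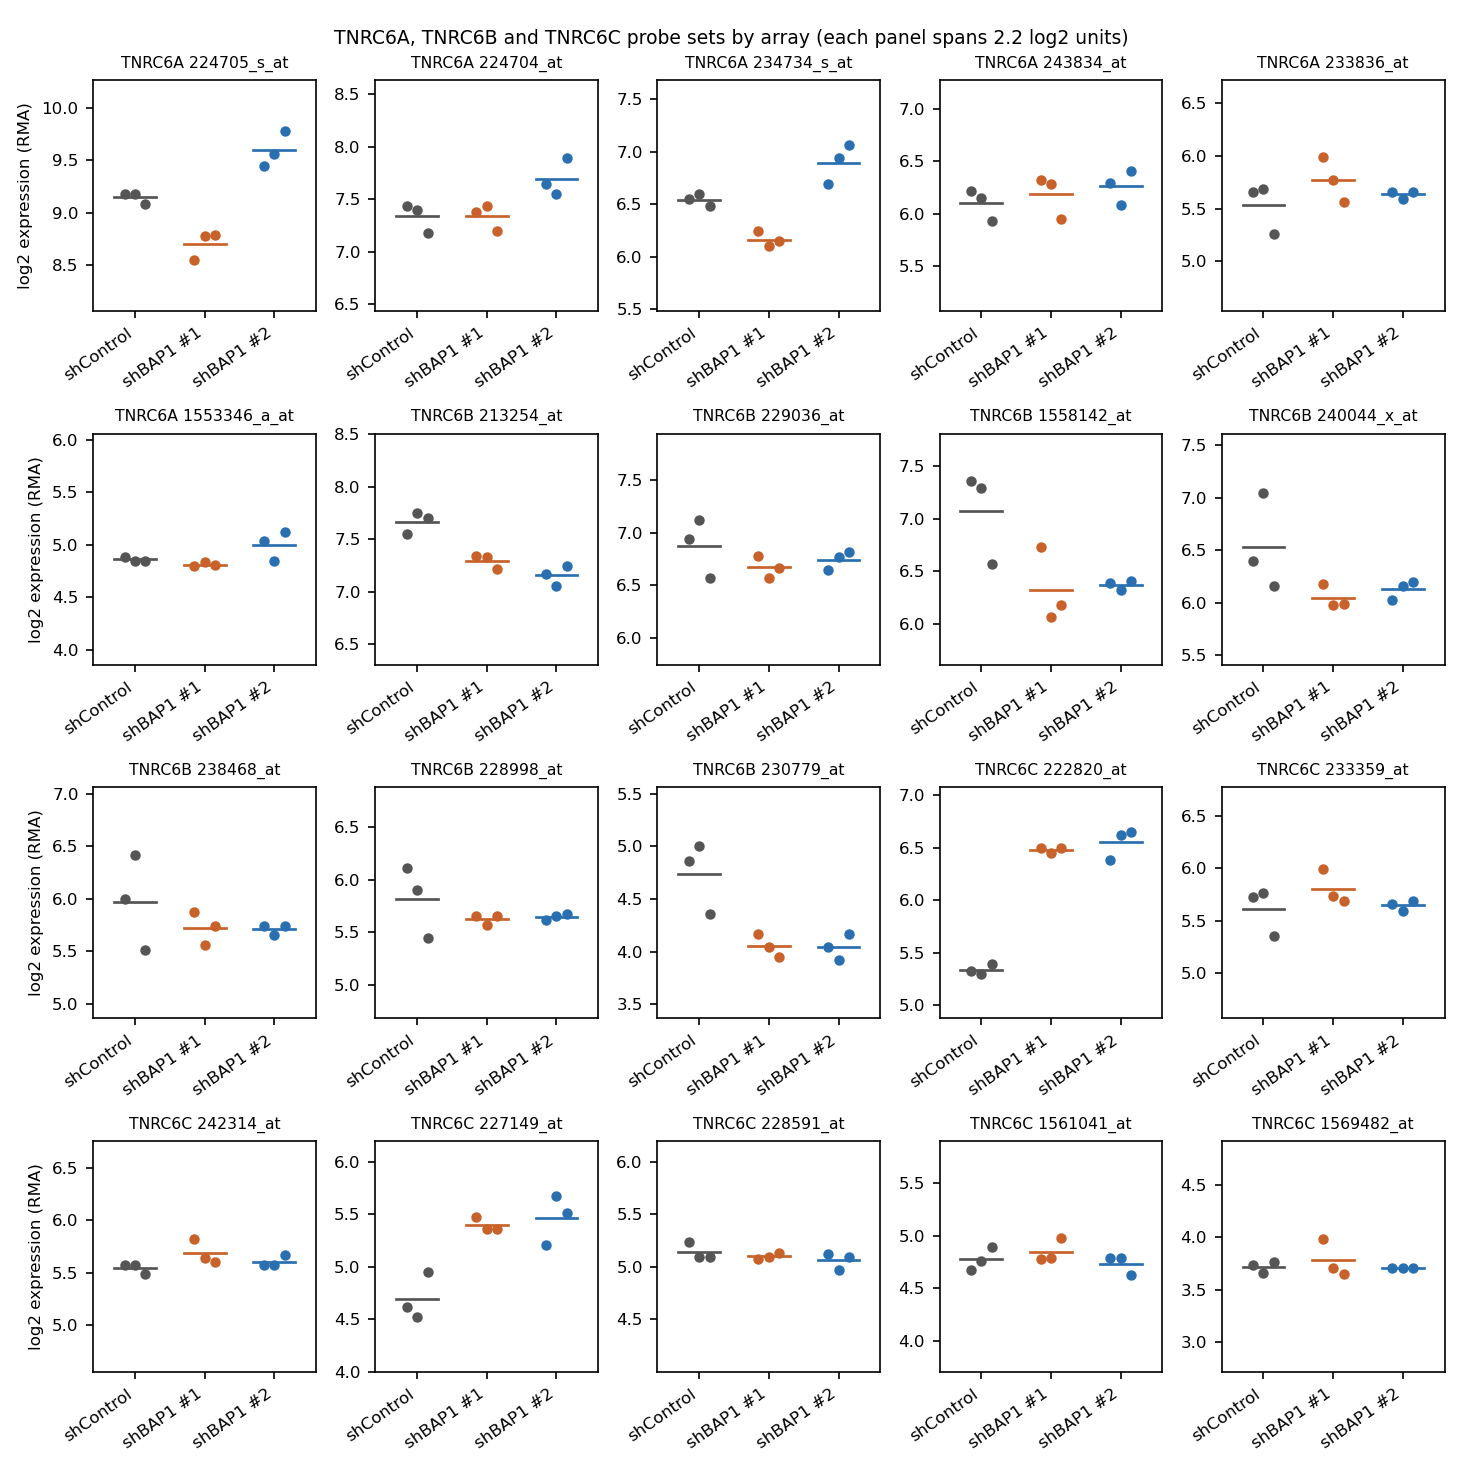
log2 expression (RMA) of the 6 TNRC6A, 7 TNRC6B and 7 TNRC6C probe sets by array, with bars at means of 3 arrays. For TNRC6C 2 sets are higher in all 6 arrays with a BAP1 hairpin than in the controls. The lowest control is shControl replicate 3 on 6 TNRC6B, 5 TNRC6A and 2 TNRC6C sets.

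For the mean of both hairpins against shControl, 6 of the 10 genes were called, against 26.4% of all genes, 12.9% higher and 13.5% lower, and against 38.5% of those that are not dim. AGO1, AGO4 and TNRC6C were higher (0.32, 0.46 and 1.18), and DICER1, TARBP2 and TNRC6B were lower (-0.49, -0.47 and -0.44). TNRC6B and TNRC6C are the called genes whose hairpins did not differ past the threshold. Over the 44 probe sets 12 were called for this mean, 4 higher and 8 lower, against 19.9% of all, 9.96% higher and 9.93% lower.

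The wider pathway was read through lists of its other genes, which were also chosen with earlier results of these data known. Of 10 measured genes of nuclear microRNA processing, 0 rose and 3 fell with shBAP1 #1, and 4 rose and 3 fell with shBAP1 #2. Of all genes 23.4% and 31.2% were called in these comparisons, so the list was near the background with shBAP1 #1. No measured gene of this list is dim, and of the genes that are not dim 34.0% and 45.1% were called. SRRT, which encodes the cap-associated protein ARS2, changed by -0.25 and -0.45. NCBP1, the large cap-binding subunit, changed by -0.56 with shBAP1 #1 and stood at -0.08 with shBAP1 #2 (adjusted p = 0.633). The helicase gene DDX17 stood at 0.14 (adjusted p = 0.272) and rose by 0.29. DROSHA, the nuclear RNase that releases precursors, was picked out after its values were seen. It read 9.94, 9.84 and 9.93 in the controls, 10.14, 10.06 and 10.20 with shBAP1 #1, and 9.42, 8.64 and 8.72 with shBAP1 #2, a change of -0.98 with the second hairpin (limma adjusted p = 0.00157) and 0.23 (adjusted p = 0.459) with the first. The shBAP1 #2 arrays lay below all others, with replicate 1 again nearest to the controls. DGCR8, the partner of Drosha, was not analysed here.

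Of 9 measured Dicer partners and regulators of precursors, 2 rose and 1 fell with shBAP1 #1, and 2 rose and 2 fell with shBAP1 #2, counts near the 23.4% and 31.2% of all genes. PRKRA, which encodes PACT, another double-stranded RNA binding partner of Dicer, rose by 0.34 and 0.40, while TARBP2 fell. LIN28B, a repressor of let-7 maturation, read 9.91, 10.16 and 9.77 in the controls, 8.01, 8.16 and 7.94 with shBAP1 #1, and 7.86, 7.85 and 8.12 with shBAP1 #2. It thus lay more than 1 log2 unit below every control in all 6 arrays.

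Of 18 genes of Argonaute loading and partners, 4 rose and 4 fell with shBAP1 #1, and 4 rose and 3 fell with shBAP1 #2. In these comparisons 23.4% and 31.2% of all genes were called, and 34.0% and 45.1% of those that are not dim. DDX20, a helicase found with Argonaute and the SMN complex, changed by -0.41 and -0.59. P4HA1, a prolyl hydroxylase subunit known for collagen and also for hydroxylating AGO2, rose by 0.74 and 0.28, and SND1, a Tudor nuclease, by 0.30 and 0.37.

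Genes of deadenylation and decapping, the steps downstream of TNRC6, were lowered more often than raised. Of 25 such genes, 3 rose and 7 fell with shBAP1 #1, and 3 rose and 11 fell with shBAP1 #2. Among all genes 11.9% rose and 11.5% fell with shBAP1 #1, and 15.8% rose and 15.5% fell with shBAP1 #2. No gene of this list is dim, and among genes that are not dim 34.0% and 45.1% were called in either direction. The list's median log2 change was -0.11 and -0.19, against 0.01 and 0.02 over all genes. The paralogous deadenylase genes CNOT8 and CNOT7 went opposite ways, CNOT8 by -0.44 and -0.97 and CNOT7 by 0.34 and 0.55. XRN1, the exonuclease that degrades decapped messages, changed by -0.64 and -0.51. The 3 measured genes of the germline PIWI clade, relatives of the Argonautes, were all dim on average. With shBAP1 #1, 0 of them were called, and with shBAP1 #2, 2 were called higher.

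By the smallest root mean square difference of centred log2 values over the 9 arrays, CEP97 (0.09), HEG1 (0.10) and TMEM205 (0.12) had the patterns most like DICER1. Their changes were -1.01, -1.16 and -1.15 with shBAP1 #1 and 0.23, 0.15 and 0.06 with shBAP1 #2. TRPC4AP (0.03), POLRMT (0.05) and FBXO17 (0.05) were most like AGO2, with 0.39, 0.33 and 0.44 with shBAP1 #2. These neighbours describe the 3 group levels and carry no test.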

How the data were processed

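Expression was measured on 9 arrays, 3 per group, with groups and replicate numbers taken from the sample titles. The authors deposited 1 log2 value per probe set and array, made with RMA, per the submitters' processing notes, with no version given. RMA corrects background, gives every array the same distribution and pools a set's probes. A global shift is thereby removed, and changes of dim sets are compressed. Array medians lay between 5.40 and 5.45, and the number of arrays limits the precision.

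Of 54675 probe sets, 62 controls were left out. Of the rest, 41091 had 1 gene symbol in the platform annotation, 1801 several and 11721 none. limma 3.58.1 in R 4.3.3 (lmFit, eBayes, two-sided, no covariates) was fitted to all 54613 over all 9 arrays, with 6 residual and 4.37 prior degrees of freedom, and p-values were Benjamini-Hochberg adjusted over all of them with a threshold of 0.05. Genes were read by their single-symbol set with the highest mean (19775 genes). SE and 95% intervals come from the fit. The code of the fit was tested on simulated data with independent noise for each array and few changed sets. That setting has no arrays that deviate together, so it cannot vouch for the p-values here. Plots used matplotlib 3.10.9 (Python 3.11.15).

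The rule for genes named beside the members took up to 3 genes per pathway list with the smallest adjusted p for the mean of both hairpins among those called, LIN28B always, and for DICER1 and AGO2 the 3 most similar genes among those at least as bright as the median and at least as variable. DROSHA and the marker genes with changes were named outside this rule, after their values were seen. Same-numbered arrays of shControl and shBAP1 #1 deviated together in all 3 pairs (r = 0.13 to 0.30), so the numbers were taken to pair these groups, from the data and not from the labels. The other group pairs did not meet this. Except where a block is named, the p-values given above come from the fit without pairing, and blocked fits are described below. Members and lists were chosen with earlier results of these data known. Alternatives were other normalizations, filters, gene summaries, weights, a replicate block and leaving out each array.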

Additional observations from a re-analysis of the deposited data

Results flagged for a closer look

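For 8 of the 10 genes the changes under both hairpins differed from each other past the threshold, in the test of shBAP1 #2 against shBAP1 #1 (limma, n = 3 per group, Benjamini-Hochberg adjusted over all probe sets). DICER1 (1.20, adjusted p = 1.1e-05), TNRC6A (0.89, adjusted p = 7.7e-05), AGO4 (0.60, adjusted p = 0.00106), AGO3 (0.52, adjusted p = 2.9e-04) and AGO2 (0.48, adjusted p = 2.9e-04) were higher with shBAP1 #2, on the log2 scale. AGO1 (-0.46, adjusted p = 3.1e-04), TARBP2 (-0.41, adjusted p = 5.4e-04) and XPO5 (-0.39, adjusted p = 0.00248) were lower. The TARBP2 value rests on its brighter set, and on its other set the hairpins differed by 0.30 in the opposite direction (adjusted p = 0.0848). This test called 1 of 4 AGO4, 2 of 4 AGO1, 2 of 3 XPO5, 3 of 4 AGO3, 3 of 6 TNRC6A and 3 of 6 DICER1 sets. The next brightest AGO4 set differed by 0.18 (adjusted p = 0.184). In each of the 8, all 3 arrays of one hairpin lay beyond all 3 of the other. This adds no support, since the 8 were picked by a call on these same arrays. Among all members it held for 8 of 10, and among all genes for 43.9%. Groups of 3 arrays were not searched for outlying arrays.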

How the results depend on the processing

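Depth is not defined for arrays, and the dim probe sets limit what can be seen. With probe sets of shared probes left out, 9, 10 and 8 of the 32 remaining member sets were called with shBAP1 #1, with shBAP1 #2 and between the hairpins, against 14, 16 and 16 of 44. The member genes that differed between the hairpins were then 5 of 9, since XPO5 has no other set. That setting has fewer probe sets by construction, and it turned the TARBP2 difference between the hairpins to 0.30 (adjusted p = 0.0985) on its other set. With the mean of all sets per gene, values that were not called changed sign for XPO5 with shBAP1 #1 (-0.02), and between the hairpins for TNRC6B (0.0082) and TNRC6C (-0.048). The mean of both hairpins for TNRC6A, 0.00, was -0.01 after cyclic loess and between -0.046 and 0.039 without 1 array. Fits of 1 value per gene give no count of probe sets, and fits of only the groups compared were not run for the mean of both hairpins.

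Same-numbered arrays had deviations correlated over 0.1 in all 3 pairs of shControl and shBAP1 #1, and in 1 of the 6 pairs with shBAP1 #2 (range over all 9 pairs -0.17 to 0.30). The best match carried the same number in 9 of 18 cases. With the replicate number as a block, 13, 15, 15 and 13 member sets were called with shBAP1 #1, with shBAP1 #2, between the hairpins and for the mean of both, against 14, 16, 16 and 12. A blocked fit of only the shControl and shBAP1 #1 arrays, chosen after seeing the data and with 2 residual degrees of freedom, called 13 sets and 6 genes. In the comparison of these groups the block ended the call of 1 dim AGO3 set and changed no other call of a member set in either blocked fit. It moved limma adjusted p-values both ways. The brightest DICER1 set had 2.2e-04 with all arrays and 5.0e-04 with these groups alone, against 4.1e-05 without the block. The TNRC6B set with the largest change with shBAP1 #1 had 0.0173 and 0.0149, against 0.0321.

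Over the 10 genes and 4 comparisons, 352 values from fits without 1 array kept direction and side of the threshold, 4 lost a call and 4 changed the sign of an uncalled value. In the other settings 342 values kept both, 8 kept their sign and lost a call, and 5 changed sign. A call was gained by 1 value (AGO3 for the mean of both with array weights, 0.18, adjusted p = 0.0341). Among the sign changes, the TARBP2 difference between the hairpins with shared-probe sets left out had been a called value and also lost its call.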
